A study of Mus musculus with 8 samples.

Results

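Transcripts of 9 genes of the MHC class II antigen presentation pathway were followed in peritoneal macrophages of Furin KO and WT mice, at rest and over a day of LPS. They are Ciita, H2-Aa, H2-Ab1, H2-Eb1, Cd74, H2-DMa, H2-DMb1, H2-DMb2 and H2-Oa. They were chosen by name, as all gene probes that map to 1 of these 9 symbols, and where a gene had several probes the brightest over all arrays was used. All 9 were on the array, with 10 of its 55681 gene probes (H2-Ab1 has 2), and all 9 were tested among 36949 of 37020 genes and transcripts. Ciita lies on chromosome 16, Cd74 on chromosome 18 and the other genes on chromosome 17, in the mouse MHC.

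MHC class II molecules present peptides of endocytosed proteins to CD4+ T cells. An alpha and a beta chain assemble in the endoplasmic reticulum with the invariant chain, CD74, which fills the peptide groove and steers the complex to endosomes. There proteases trim the invariant chain, and H2-DM exchanges its last fragment for antigenic peptides. H2-DO, found mainly in B cells, restrains H2-DM. The coactivator CIITA switches these genes on together, through factors bound to short X and Y boxes in their promoters, and interferon gamma induces CIITA in macrophages. Dendritic cells, B cells and activated macrophages are the main cells that carry class II.

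The KO macrophages came from LysMCre-fur(fl/fl) mice, in which the lysozyme M promoter drives Cre in myeloid cells, and the WT macrophages from littermates, both on a C57BL/6 background. The animals' age for these arrays is not given in the sources used here. Cells washed out of the peritoneal cavity were plated for a day, washed to remove those that had not attached, and left untreated or given LPS at 1 μg/ml for 1, 4 or 24 h. There is no further sorting step, so other adherent cells can contribute RNA. Each of the 4 time points has 2 replicates, and each replicate is 1 Agilent 2-colour array on which the KO sample and its WT counterpart were hybridised together. KO RNA was in Cy5 on the arrays of replicate 1 and in Cy3 on those of replicate 2, so replicate and dye orientation cannot be told apart. The deposited growth protocol names 4 h of LPS for all samples, while the titles give the separate times, which were used. Intensities are given as normalised log2 values of 1 channel, and n is 2 for each genotype and time. Levels of different probes are not compared with each other.

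All 9 genes were well above background in all 16 channels, and none of their spots was saturated. Over the whole array, between 43.8% and 51.3% of the spots of a channel were well above background. Furin, the targeted gene, had log2 KO/WT ratios between -0.84 and -0.53 on the 6 arrays of untreated cells and of 1 and 24 h of LPS, but of 0.00 and 0.33 after 4 h. The libraries labelled KO at 4 h therefore did not show lower Furin signal, which bears on every KO value at that time given here. Lyz2, the locus into which LysMCre is inserted, had ratios between -1.85 and -0.74 on all 8 arrays, those of 4 h included. Macrophage markers were present in every channel, with the log2 intensity of Adgre1, a surface marker of tissue macrophages, between 14.92 and 16.15. Markers of B cells were present too. Of 14 B cell markers 12 were measured, and all 12 were well above background in all 16 channels, among them Cd79b (12.10 to 15.96) and Ms4a1, which encodes CD20 (13.17 to 14.82). Of 11 dendritic cell markers, 8 to 10 were well above background in a channel, while Xcr1 was so in 0 of 16. Of 8 measured markers of T and NK cells, 5 or 6 were, while the NK cell receptor Ncr1 was so in 0 of 16. The RNA thus held B cell transcripts beside those of macrophages. A fall in a transcript can mean fewer cells of a type or less RNA per cell, and in bulk RNA these cannot be told apart.

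Stretches of the H2 promoters are shown because a Y box is the element most of them share. RefSeq promoter windows of GRCm38.p6, which run from 250 bases before to 50 bases after a start site, were matched for 6 of the 9 genes, in 7 windows. Ciita, Cd74 and H2-Ab1 had no window. The Y box was searched on both strands as GATTGG, and the X box by a longer motif, whose matches are the first capitals in the H2-Eb1 and H2-DMb1 sequences. A Y box was found in 6 of the 7 windows and in 16.1% of all 32851 windows, and an X box in 3 of the 7 and in 0.968% of all. The stretches around the Y box of the 5 genes in which it lies nearest to the start site are shown 5′ to 3′ on the gene's strand, with matches of both motifs in capitals.
H2-Aa: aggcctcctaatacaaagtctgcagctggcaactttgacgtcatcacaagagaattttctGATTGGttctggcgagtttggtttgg
H2-Eb1: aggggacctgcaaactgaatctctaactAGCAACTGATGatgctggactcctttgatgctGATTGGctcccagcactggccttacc
H2-DMb1: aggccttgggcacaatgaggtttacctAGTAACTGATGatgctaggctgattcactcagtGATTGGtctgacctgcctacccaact
H2-DMb2: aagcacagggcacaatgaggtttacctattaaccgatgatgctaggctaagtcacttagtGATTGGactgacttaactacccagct
H2-Oa: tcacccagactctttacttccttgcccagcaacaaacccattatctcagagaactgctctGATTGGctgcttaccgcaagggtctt

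These stretches lie at chr17:34287847-34287932 on the minus strand for H2-Aa and, on the plus strand, at chr17:34305747-34305832 for H2-Eb1, chr17:34153069-34153154 for H2-DMb1, chr17:34145098-34145183 for H2-DMb2 and chr17:34092275-34092360 for H2-Oa. The Y box begins 49 bases before the start site in H2-Aa, 60 in H2-Eb1, 62 in H2-DMb1, 91 in H2-DMb2 and 44 in H2-Oa. H2-Eb1 has a second Y box on the opposite strand, beginning 35 bases before the start site, which the stretch shown does not hold in full. In H2-Eb1 and H2-DMb1 the X box precedes the Y box shown in capitals by 21 and 22 bases. The X box match of H2-Oa lies 86 bases ahead of its Y box, outside the stretch shown. The stretches of H2-DMb1 and H2-DMb2, which encode alternative beta chains of H2-DM, were identical at 72 of 86 positions (83.7%), against 23.3% to 39.5% for the other 9 pairs. Whether the probes of these neighbouring genes cross-hybridise was not tested. In H2-DMa the Y box of 1 of its 2 windows begins 199 bases before the start site. The gamma-activated sequence, searched as TTCNNNGAA, was found in H2-DMb2 alone among the 7 windows and in 8.3% of all windows, and the interferon-stimulated response element in 0 of the 7 and in 3.44% of all. A match describes these letters in this window and says nothing of binding.

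After 4 h of LPS class II transcripts were lower in both genotypes. Of the 9 genes 6 fell in WT macrophages and all 9 in KO macrophages. Both channels lay below both untreated channels for all 9 genes in each genotype, as they did for 32.3% of all features in WT and 31.4% in KO. The largest fitted changes were those of H2-Oa, H2-DMa, H2-DMb1 and H2-DMb2, and the smallest that of H2-Ab1. The order of the first pair in WT rested on replicate 2 of the untreated arrays, without which H2-Oa changed by -1.24 and H2-DMa by -1.28. Over all features tested, 19.3% fell in WT and 19.8% in KO at this time (adjusted p under 0.05 in limma's separate-channel fit of all 16 channels). The median log2 change of the 9 genes was -0.84 in WT and -0.97 in KO, where the median of all features was -0.0026 and -6.08e-05. Without replicate 1 of the 4 h arrays or replicate 2 of the untreated arrays 5 genes passed in KO, with the calls of Ciita, Cd74, H2-Aa and H2-Ab1 lost (adjusted p from 0.154 to 0.212).

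**Figure D1:**
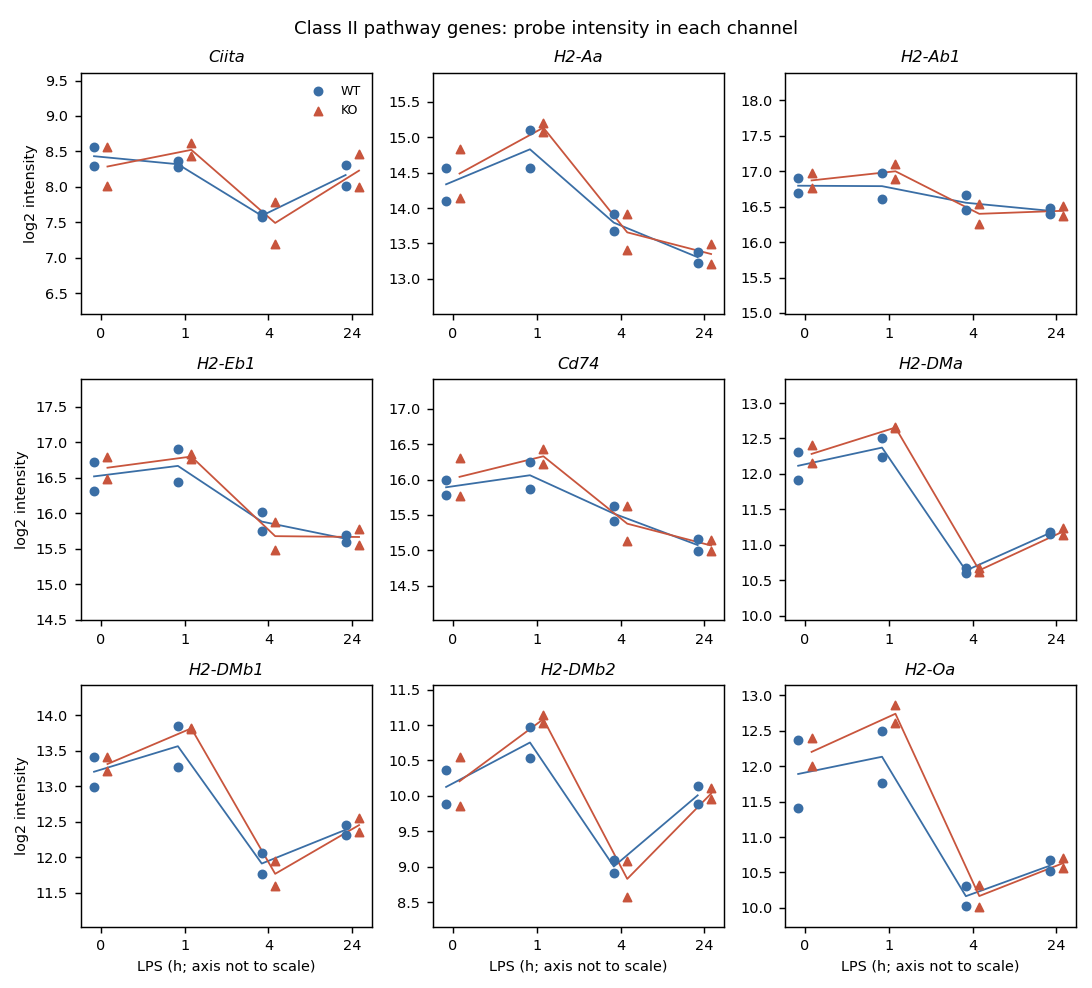
Log2 intensity of each class II gene (1 panel a gene, each axis spanning the same number of log2 units) against hours of LPS, with 1 point for each array channel, WT as circles and KO as triangles, and lines through the means of 2 channels. All 9 genes lie lower at 4 h than untreated in both genotypes, and the means of Ciita, H2-DMa, H2-DMb1, H2-DMb2 and H2-Oa are higher at 24 h than at 4 h in both.

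Ciita, the master regulator, had a WT log2 intensity of 8.30 and 8.56 without LPS, 8.27 and 8.37 after 1 h, 7.62 and 7.57 after 4 h, and 8.32 and 8.02 after 24 h (replicates 1 and 2). In KO the values were 8.01 and 8.56, 8.43 and 8.61, 7.19 and 7.79, and 8.0 and 8.46. Both 4 h channels lay below both untreated channels in each genotype, while at 24 h 1 of the 2 channels did. The change at 4 h was -0.84 ± 0.22 in WT (standard error, adjusted p = 0.00736), a 1.79-fold fall, and -0.80 ± 0.22 in KO (adjusted p = 0.0100). At 24 h it was -0.27 in WT and -0.06 in KO, and neither passed the test. Both calls at 4 h were lost without replicate 2 of the untreated arrays (adjusted p = 0.0509 in WT and 0.154 in KO), and that in KO also when replicate 1 at 4 h was left out (adjusted p = 0.164).

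H2-DMa, the alpha chain of H2-DM, gave the most precise time course. Its WT log2 intensity was 11.92 and 12.31 without LPS, 12.24 and 12.51 after 1 h, 10.60 and 10.67 after 4 h, and 11.18 and 11.15 after 24 h. In KO it was 12.15 and 12.41, 12.64 and 12.67, 10.61 and 10.67, and 11.14 and 11.23. The 4 h channels of both genotypes lay close together, the 24 h channels above them, and both below every untreated channel. H2-DMa fell 2.79-fold in WT at 4 h (log2 change -1.48 ± 0.13, adjusted p = 6.12e-07) and 3.12-fold in KO (-1.64 ± 0.13, adjusted p = 2.22e-07). It was still lower at 24 h, by 1.93-fold in WT (adjusted p = 6.20e-05) and 2.13-fold in KO (adjusted p = 1.82e-05).

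H2-Oa, the alpha chain of the H2-DM inhibitor H2-DO, fell at 4 and 24 h in both genotypes. Its WT log2 intensity was 11.41 and 12.37 without LPS, 11.77 and 12.50 after 1 h, 10.02 and 10.31 after 4 h, and 10.52 and 10.67 after 24 h. In KO it was 12.00 and 12.40, 12.87 and 12.61, 10.01 and 10.33, and 10.71 and 10.56. The WT channels of replicate 1 were the lowest of their time untreated and at 1 h, and the spread between untreated WT replicates (SD 0.68) was the widest of the 9 genes. The fall was 3.30-fold in WT at 4 h (log2 change -1.72 ± 0.28, adjusted p = 0.000180) and 4.09-fold in KO (-2.03 ± 0.28, adjusted p = 4.04e-05). At 24 h it was 2.45-fold in WT and 2.97-fold in KO (adjusted p = 0.00236 and 0.000565).

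Both beta chains of H2-DM fell at 4 h. H2-DMb1 fell 2.45-fold in WT and 2.93-fold in KO at 4 h (adjusted p = 7.75e-05 and 1.49e-05), from means of 13.20 and 13.31 to 11.91 and 11.77. It remained lower at 24 h, by 1.76-fold in WT and 1.82-fold in KO (adjusted p = 0.00412 and 0.00300), though without replicate 2 of the untreated arrays the WT call was lost (adjusted p = 0.0747). H2-DMb2 had WT values of 9.88 and 10.37 without LPS, 10.54 and 10.97 after 1 h, 8.91 and 9.10 after 4 h, and 10.14 and 9.88 after 24 h. Its KO values were 9.86 and 10.55, 11.03 and 11.14, 8.58 and 9.09, and 9.95 and 10.11. At 1 h both channels of each genotype lay above the untreated ones, at 4 h below, and at 24 h they overlapped with them. It fell 2.18-fold in WT and 2.60-fold in KO at 4 h (adjusted p = 0.00129 and 0.000235), while its log2 change at 24 h was -0.12 ± 0.23 and -0.17 ± 0.23 and did not pass.

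The chains of the class II molecules themselves had smaller fitted changes at 4 h than the H2-DM genes, of at most -0.97 on the log2 scale. Changes of different probes were not tested against each other. H2-Aa, the I-A alpha chain, had WT values of 14.10 and 14.57 without LPS, 14.56 and 15.10 after 1 h, 13.67 and 13.92 after 4 h, and 13.38 and 13.23 after 24 h. Its KO values were 14.14 and 14.83, 15.07 and 15.20, 13.40 and 13.91, and 13.20 and 13.50. The channels at 4 and 24 h lay below the untreated ones in both genotypes, and the 24 h channel was the lowest of the time course in each genotype and replicate. H2-Aa had a log2 change of -0.54 ± 0.24 in WT at 4 h, which did not pass (adjusted p = 0.103, and 0.0306 without replicate 1 of the untreated arrays), and fell 1.78-fold in KO (adjusted p = 0.0133). At 24 h it fell 2.04-fold in WT and 2.20-fold in KO (adjusted p = 0.00405 and 0.00210).

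H2-Eb1, the I-E beta chain, fell 1.56-fold in WT and 1.95-fold in KO at 4 h (adjusted p = 0.0151 and 0.000803), and 1.84-fold and 1.97-fold at 24 h (adjusted p = 0.00211 and 0.00100). The WT call at 4 h was lost without replicate 1 of the 4 h arrays or replicate 2 of the untreated arrays (adjusted p = 0.109 and 0.171). H2-Ab1, the I-A beta chain, had the smallest fitted change of the 9 genes at 4 h but not at 24 h. In WT its means were 16.80, 16.79, 16.55 and 16.44 at 0, 1, 4 and 24 h, and neither the log2 change of -0.24 at 4 h nor that of -0.35 at 24 h passed (adjusted p = 0.260 and 0.0929). In KO it fell 1.39-fold at 4 h and 1.35-fold at 24 h (adjusted p = 0.0216 and 0.0434). The call at 4 h was lost under the Aquantile normalization between arrays (adjusted p = 0.0691). The second probe of H2-Ab1 had WT values of 16.36 and 16.67 untreated and of 16.12 and 16.17 after 24 h, in the same order as the first probe.

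Cd74, which encodes the invariant chain, had WT values of 15.784 and 15.998 without LPS, 15.87 and 16.25 after 1 h, 15.41 and 15.63 after 4 h, and 15.16 and 14.99 after 24 h. In KO it had 15.77 and 16.30, 16.22 and 16.44, 15.13 and 15.62, and 15.00 and 15.14. The 24 h channels lay below every untreated channel. Cd74 fell 1.76-fold in WT and 1.96-fold in KO at 24 h (adjusted p = 0.00460 and 0.00140). At 4 h it fell 1.58-fold in KO (adjusted p = 0.0145) and had a change of -0.37 ± 0.19 in WT that did not pass (adjusted p = 0.173). The WT call at 24 h was lost when replicate 2 at 24 h was left out (adjusted p = 0.0542).

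**Figure D2:**
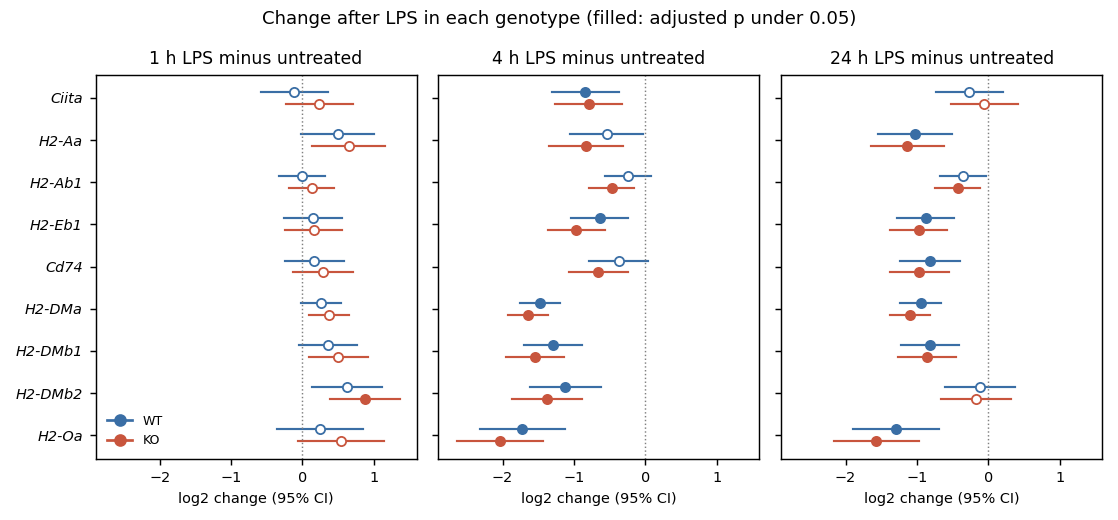
Log2 change of each class II gene from untreated cells after 1, 4 and 24 h of LPS (panels), in WT and KO, with 95% confidence intervals of the limma separate-channel fit of 16 channels. Filled points have an adjusted p under 0.05, and H2-Oa, H2-DMa, H2-DMb1 and H2-DMb2 are lowest at 4 h, between -2.03 and -1.12.

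At 24 h 6 of the 9 genes were lower in WT and 7 in KO, where 16.8% and 15.7% of all features fell and 13.5% and 13% rose. Both 24 h channels lay below both untreated channels for 7 of the 9 in each genotype, all but Ciita and H2-DMb2, against 32.5% of all features in WT and 31.5% in KO. The genes lower in both were Cd74, H2-Aa, H2-Eb1, H2-DMa, H2-DMb1 and H2-Oa, with H2-Ab1 in KO in addition. The H2-Ab1 call was lost under the Aquantile normalization, with the scanner software's processed signals and without either replicate of the untreated or the 24 h arrays (adjusted p from 0.0537 to 0.272). The comparisons with 4 and 24 h share their untreated channels.

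A direct comparison of 24 h with 4 h was added after the data had been seen. H2-DMb2 rose from 4 to 24 h, 2.00-fold in WT and 2.30-fold in KO (adjusted p = 0.00376 and 0.000943), and H2-DMa rose 1.44-fold and 1.46-fold (adjusted p = 0.00650 and 0.00498). In WT the other 7 genes did not pass, and in KO Ciita (1.67-fold, adjusted p = 0.0186) and H2-DMb1 (1.61-fold, adjusted p = 0.0126) rose as well. Of all features, 15.3% rose in WT and 15.8% in KO between these times. None of the 9 genes fell from 4 to 24 h, where 14.5% and 14.9% of all features did. H2-Aa changed by -0.49 in WT and -0.31 in KO and Cd74 by -0.44 and -0.31, and neither passed (adjusted p from 0.109 to 0.416).

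After 1 h of LPS 1 of the 9 genes passed in KO and 0 in WT. H2-DMb2 rose 1.84-fold in KO (log2 change 0.88 ± 0.23, adjusted p = 0.0324), where 3.12% of all features rose and 4.41% fell, and had a change of 0.63 ± 0.23 in WT that did not pass (adjusted p = 0.134, and 0.0426 without replicate 2 of the untreated arrays). The KO call was lost with the processed signals (adjusted p = 0.100) and without either replicate of the 1 h arrays, either of the 24 h arrays or replicate 1 of the untreated arrays (adjusted p from 0.0554 to 0.313). In WT none of the 9 genes passed in the main fit, where 3.36% of all features rose and 5.2% fell, and 1 of them, H2-DMb2, had an unadjusted p under 0.05. Of all 36929 features 6792 in WT and 6692 in KO had an unadjusted p under 0.05 at 1 h, in either direction. In KO the log2 changes of all 9 genes were above 0, from 0.13 for H2-Ab1 to 0.88, and 4 had an unadjusted p under 0.05. Of these H2-Aa passed without replicate 2 of the untreated arrays (adjusted p = 0.0380). Both 1 h channels lay above both untreated channels for 1 of the 9 genes in WT, H2-DMb2, and for 5 in KO, against 18.8% and 19.7% of all features. With the replicate number and the dye as terms of the fit, H2-Aa, H2-DMa and H2-DMb1 also passed in KO (adjusted p = 0.0166, 0.0421 and 0.0387). H2-DMb2 then passed in WT (adjusted p = 0.0268). The share of all features called in that fit is not reported here.

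KO and WT macrophages did not differ detectably in any of the 9 genes. In limma's fit of the KO/WT ratios, which used all 8 arrays, the test called 0 of the 9 untreated and at 1, 4 and 24 h, and 0 in the mean over the 4 times. Over all features it called 0%, 0%, 0.0108% and 0.0217% at the 4 times and 0.595% in the mean. Furin, the targeted gene, itself passed at none of the 4 times (adjusted p of at least 0.155) and passed in the mean (adjusted p = 0.0211). Of all 36949 features 2137, 2054, 1590 and 1251 had an unadjusted p under 0.05 at the 4 times and 3942 in the mean. Of the class II genes 0, 3, 0 and 0 did at the 4 times and 1 in the mean. The methods' t-test gave 0 at every time before and after adjustment. The 95% confidence intervals of the mean over the 4 times lay between -0.22 and 0.49 for all 9 genes on the log2 scale, and for H2-DMa between 0.01 and 0.23.

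**Figure D3:**
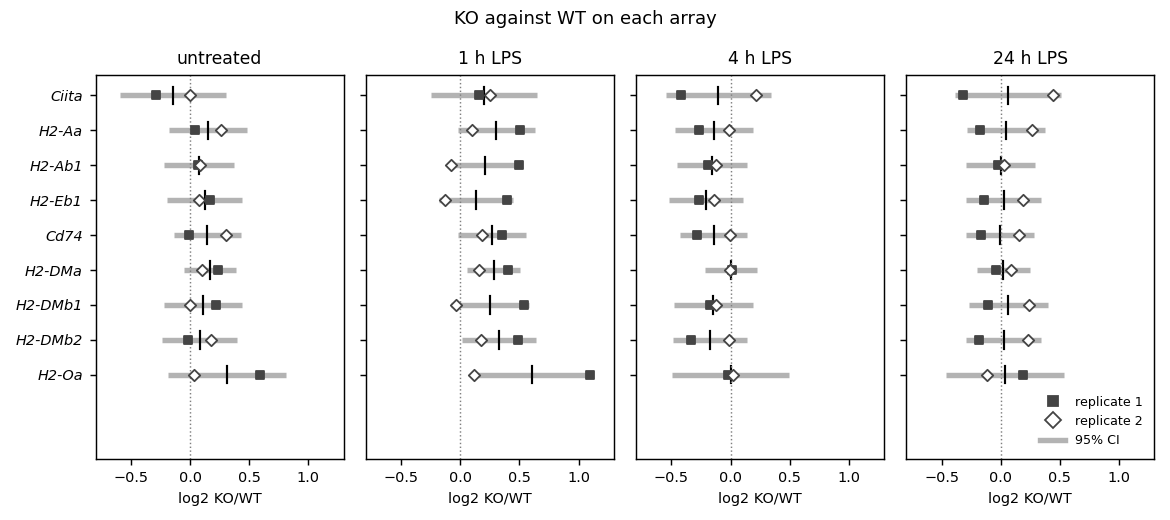
KO over WT (log2) on each array for the 9 class II genes, replicate 1 as filled squares and replicate 2 as open diamonds, with the fitted mean as a vertical tick and its 95% confidence interval as a grey bar, in 1 panel a time point. At 1 h the replicate 1 array lies above 0 for all 9 genes, while at 24 h the replicates lie on opposite sides of 0.

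In untreated cells the log2 KO/WT ratio was between -0.15 for Ciita and 0.31 for H2-Oa, with a median of 0.12. At 1 h all 9 fitted ratios were above 0, with a median of 0.27, and the 3 with an unadjusted p under 0.05 were H2-Oa (0.61 ± 0.22, adjusted p = 0.787), H2-DMb2 (0.33 ± 0.14, adjusted p = 0.864) and H2-DMa (0.28 ± 0.10, adjusted p = 0.763). This rested mostly on 1 array. On replicate 1 all 9 genes were higher in KO, by 0.16 for Ciita to 1.10 for H2-Oa with a median of 0.49, and on replicate 2 the ratios ran from -0.13 for H2-Eb1 to 0.25 for Ciita with a median of 0.11. Without the replicate 1 array the ratio of H2-Oa at 1 h was 0.11 and that of H2-DMa 0.16.

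Markers of B cells moved with this array. All 12 measured B cell markers were higher in KO on replicate 1 at 1 h, from 0.17 for Cd37 to 1.77 for Vpreb3 with a median of 0.59, and 9 of 12 on replicate 2, with a median of 0.19. Of 8 markers of T and NK cells 7 were higher in KO on replicate 1, with a median of 0.49, and 5 on replicate 2, with a median of 0.03. Of 11 markers of large peritoneal macrophages 3 were higher in KO on replicate 1, with a median of -0.13, and 8 on replicate 2, with a median of 0.38. The summed log2 level of the B cell markers at 1 h was 16.31 in WT and 16.88 in KO on replicate 1, and 16.69 and 16.98 on replicate 2. The part of B cell RNA in the class II ratios of that array was not tested.

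At 4 h the ratio was below 0 for 7 of the 9 genes, with a median of -0.14, and H2-DMa and H2-Oa were at 0.00. On replicate 1 at 4 h 8 of the 9 ratios were below 0 and on replicate 2 7 were. At 24 h the fitted ratios were between -0.01 and 0.07, where for all 9 genes the replicates had opposite signs. The difference between the replicates was widest for Ciita, with -0.32 on replicate 1 and 0.44 on replicate 2. The summed log2 level of the large peritoneal macrophage markers at 24 h was 16.54 in WT and 15.86 in KO on replicate 1, and 15.14 and 16.54 on replicate 2. That of the B cell markers was 15.69 and 15.73 on replicate 1, and 15.61 and 15.87 on replicate 2. Their part in the class II ratios was not tested.

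Nor did the response to LPS differ detectably between genotypes. The change of the KO/WT ratio from untreated cells gave 0 calls among the 9 genes at 1, 4 and 24 h in limma, and 0 calls over all features (0%). An unadjusted p under 0.05 was found for 0 of the 9, and for 527, 1079 and 1228 of all 36949 features at these times. At 4 h the difference was below 0 for 8 of the 9 genes, between -0.33 for H2-Eb1 and -0.16 for H2-DMa, with 0.04 for Ciita, so falls in KO and WT differed by at most 1.26-fold in these estimates. The widest 95% interval at 4 h, that of H2-Oa, ran from -1.01 to 0.39. The 9 calls in KO and 6 in WT at 4 h were thus not shown to differ between genotypes. Between 1 and 4 h, a contrast added after the data had been seen, the ratio of Cd74 changed by -0.41 and that of H2-DMb2 by -0.50, with unadjusted p of 0.0475 and 0.0304 and an adjusted p of 1.00 for both.

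Both other class II genes measured fell at 4 h in each genotype. H2-Ob, the beta chain of H2-DO, fell at 4 and 24 h, with log2 changes of -0.94 and -1.26 in WT and -1.28 and -1.56 in KO (adjusted p from 0.000113 to 0.00458). H2-Eb2 fell in both genotypes at 4 h (-0.99 and -1.2, adjusted p = 0.0170 and 0.00515) and had changes of 0.07 and -0.07 at 24 h that did not pass. No probe was named for H2-Ea. Over the 16 channels, the non-members most like the mean of Cd74, H2-Aa, H2-Ab1 and H2-Eb1 by Pearson correlation of centred log2 intensities were H2-Ob (0.99), Mapk12 (0.98), Ctse (0.98), Akap8 (0.97) and Fgd2 (0.97). Among the 9 genes the correlation with this mean was 0.92 for H2-Oa, 0.88 for H2-DMa and H2-DMb1, 0.72 for H2-DMb2 and 0.62 for Ciita. H2-DMb2 was closer to Ciita (0.91). The channels share arrays and the LPS time course, so these values only describe the pattern.

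Of 7 factors that act at class II promoters, 3 rose and 3 fell at 4 h in each genotype, where 15.5% of all features rose in WT and 16.2% in KO and 19.3% and 19.8% fell. Rfxank, a subunit of the RFX complex that binds the X box, fell at 4 h, with log2 changes of -1.45 in WT and -1.32 in KO (adjusted p = 1.09e-07 and 2.70e-07). Rfxap, another RFX subunit, also passed as lower at 4 h (adjusted p = 0.00105 and 0.000542), but it was well above background in 12 of the 16 channels and in neither KO channel at 4 h, so the size of its fall is not given. Creb1 rose by 1.09 in both genotypes, and the Y box subunits Nfyb and Nfya rose by 0.97 and 0.56 in WT and 0.61 and 0.64 in KO. Nfyc, the third subunit that binds the Y box, fell (-0.44 in WT and -0.47 in KO). Rfx5, well above background in 7 of the 16 channels, did not pass at any time. At 24 h Rfxank had changes of -0.13 and -0.06, which did not pass.

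Of 7 genes of interferon gamma signalling, which acts on Ciita, 5 rose and 2 fell at 4 h in each genotype, against 15.5% and 16.2% of all features that rose in WT and KO and 19.3% and 19.8% that fell. Socs1, the feedback inhibitor of JAK signalling, rose by 5.67 in WT and 5.20 in KO at 4 h and by 5.64 and 5.29 at 24 h (adjusted p of at most 6.23e-11). Jak2 rose by 3.28 in WT and 3.27 in KO after 4 h. Irf1, an activator of Ciita transcription, rose by 1.97 in WT and 1.54 in KO after 1 h. At 24 h it was lower than untreated in WT (-0.85, adjusted p = 0.000227) and had a change of 0.08 in KO that did not pass, and the difference in response did not pass either (0.93 ± 0.19, adjusted p = 0.603). Ifngr1, which encodes the ligand-binding receptor chain, fell, with log2 changes of -1.12 in WT and -1.2 in KO at 4 h and -1.91 and -1.82 at 24 h (adjusted p of at most 2.89e-06).

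Of 5 negative regulators of class II, 3 rose at 1 h in each genotype, where 3.36% of all features rose in WT and 3.12% in KO, and Tgfb1 and Marchf1 did not pass. Prdm1, which encodes the Ciita repressor BLIMP-1, rose by 2.58 in WT and 2.43 in KO at 1 h, and Il10 by 2.65 and 2.72, with Il10 at 4.71 and 4.65 at 4 h (adjusted p of at most 0.000154). Marchf1, a ubiquitin ligase that removes class II from the surface, fell at 4 h (-0.69 in WT and -0.65 in KO, adjusted p = 0.00522 and 0.00761) and rose at 24 h (1.29 and 1.51, adjusted p = 4.46e-05 and 1.08e-05). Cd83, which opposes that removal, went the other way at 4 h. It rose by 2.71 in WT and 2.66 in KO at 1 h and by 2.50 and 2.41 at 4 h (adjusted p of at most 1.12e-07), with changes of -0.24 and -0.35 at 24 h that did not pass.

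Antigen processing enzymes fell with the class II genes. Of 8 genes 7 fell and 1 rose at 4 h in each genotype, where the background was 19.3% and 19.8% lower and 15.5% and 16.2% higher. Ifi30, the lysosomal thiol reductase GILT, fell at 4 h (log2 change -1.74 in WT and -1.65 in KO), as did the aspartic protease Ctsd (-1.61 and -1.79, adjusted p of at most 7.50e-07 for both). Ctsb had changes of -0.80 and -0.97 and also fell. The gene that rose was Sppl2a, which encodes the intramembrane protease that clears the last fragment of the invariant chain, by 1.28 in WT and 1.47 in KO (adjusted p = 2.28e-07 and 6.28e-08). At 24 h 5 of 8 were lower in WT and 6 in KO, where 16.8% and 15.7% of all features were. Ctss, the protease that trims the invariant chain in B cells and dendritic cells, had changes of -1.03 and -0.78 then (adjusted p = 5.73e-05 and 0.000652). Of the co-stimulatory genes, Cd40 rose by 4.11 and 4.19 after 4 h, while Cd86 (-2.07 in WT and -2.32 in KO) and Cd80 (-1.83 and -1.15) fell at 24 h.

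**Figure D4:**
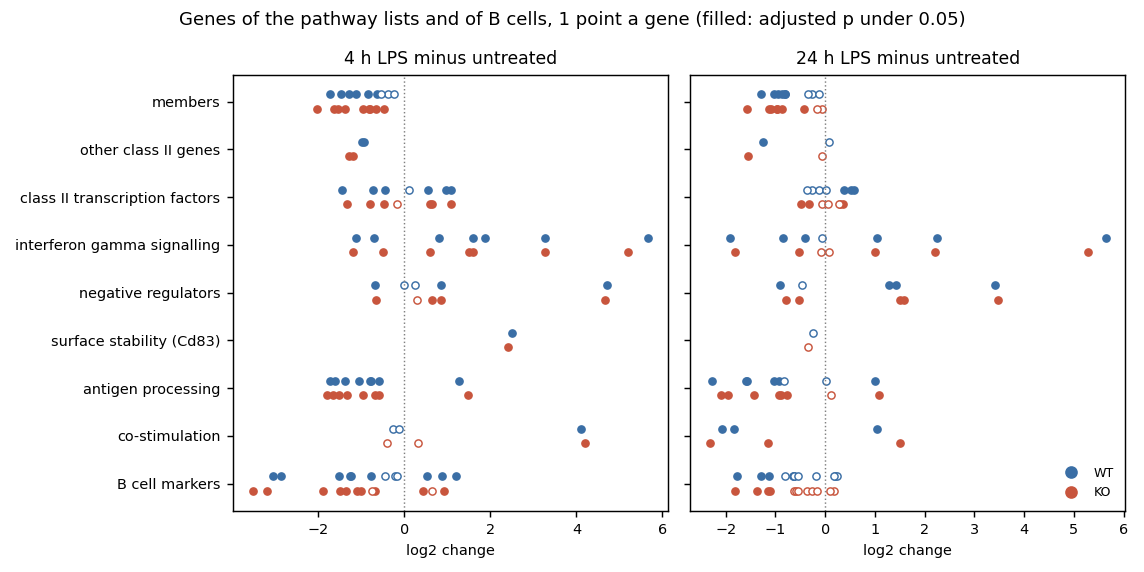
Log2 change of single genes (1 point a gene) from untreated cells after 4 and 24 h of LPS, for the 9 class II genes, the pathway lists and the B cell markers, WT above KO in each row, with filled points for an adjusted p under 0.05. Antigen processing and B cell markers fell in part with the class II genes at 4 h, while interferon gamma signalling reaches 5.67.

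Markers of the cells that carry class II moved in the same period. The summed log2 level of the 12 B cell markers was 16.38 to 16.73 in untreated WT, 15.43 to 15.70 at 4 h and 15.61 to 15.69 at 24 h, and in KO 16.52 to 17.02, 15.13 to 15.61 and 15.73 to 15.87. The summed level of the 9 class II genes was 18.08 to 18.39, 17.67 to 17.90 and 17.56 to 17.59 in WT, and 18.18 to 18.52, 17.43 to 17.80 and 17.50 to 17.67 in KO. Both sums were lower at 4 and 24 h than in any untreated channel of their genotype. Of the 12 B cell markers 6 fell and 3 rose in WT at 4 h, and 8 fell and 2 rose in KO, against 19.3% and 19.8% of all features that fell and 15.5% and 16.2% that rose. Cd79b (-3.05) and Fcrla (-2.86) fell most in WT, while Pax5 rose by 0.53 (adjusted p = 0.0152). At 24 h 5 of 12 fell in WT and 4 in KO, where 16.8% and 15.7% of all features fell, and 0 rose, where 13.5% and 13% did.

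Markers of other cell types moved too, over a background in WT and KO of 19.3% and 19.8% of all features lower and 15.5% and 16.2% higher at 4 h, and of 16.8% and 15.7% lower and 13.5% and 13% higher at 24 h. Of 11 dendritic cell markers 5 fell and 3 rose in WT at 4 h and 6 fell and 1 rose at 24 h, with a summed level of 16.21 to 16.27 without LPS, 16.07 to 16.08 at 4 h and 15.15 to 15.21 at 24 h. In KO 4 fell and 3 rose at 4 h, and 6 fell and 1 rose at 24 h, from 15.88 to 15.90 untreated to 15.88 and then 15.20 to 15.22. Of 11 markers of large peritoneal macrophages 8 fell in WT and 7 in KO at 4 h, and 10 and 9 at 24 h. Of 10 markers of small peritoneal macrophages, the peritoneal macrophages with most class II, 5 fell in each genotype at 4 h and 6 and 5 at 24 h, while 3 rose in WT and 2 in KO at 4 h and 3 in each at 24 h. Mast cell markers fell at 24 h, with 5 of 6 in each genotype and 0 at 4 h. Of 8 measured T and NK cell markers 0 fell and 1 rose in WT at 4 h and 2 fell and 1 rose at 24 h, and in KO 1 fell and 1 rose at 4 h and 3 fell and 1 rose at 24 h. Of 6 measured macrophage markers 3 fell and 1 rose at 4 h in each genotype, and at 24 h 3 fell and 2 rose in WT and 3 fell and 1 rose in KO. The part of any of these cells in the class II changes was not tested.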

How the data were processed

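Raw spot intensities of 8 two-colour arrays were deposited by the authors as Agilent Feature Extraction 10.7.3 output, with the software's processed signals, and log2 ratios that the authors had normalized with loess and quantile methods in limma were deposited as a matrix. Here the median intensities were background-corrected (normexp, offset 50), normalized by loess within and quantile between arrays, and turned into log2 KO/WT ratios with limma 3.58.1 in R 4.3.3. Outlier spots were left out. Features were tested where their log2 intensity averaged 6 or more. Ratios were fitted with 1 coefficient per time (4 residual degrees of freedom). LPS effects were fitted on separate channels for 36929 features (statmod 1.5.0, within-spot correlation 0.109). P-values were adjusted by Benjamini-Hochberg over all features (threshold 0.05). The labels call the replicates biological without naming animals or cultures, so p-values measure the spread between these samples. All arrays were on 1 slide and from 1 scan. The number of arrays limits the precision.

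Genes were named through RefSeq identifiers (27509 of 55681 probes). The arrays' own annotation is of another build than the RefSeq table, so no gene positions are given apart from those of the promoters. Text names the 9 genes, Furin, at most 4 genes of lowest p per list and comparison, defining cell markers, and the 5 genes most alike. The 9 genes and all lists were chosen with earlier results of these data known, and genes named outside this rule were chosen after their values were seen. The scripts were tested on simulated data. Alternatives were other background corrections, normalizations, filters and probe rules, a term for the replicate, the deposited matrix, the methods' t-test and leaving out each array. Single values of some list genes are not reported here.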

Additional observations from a re-analysis of the deposited data

How the results depend on the processing

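Over the single class II genes, 1890 values were recomputed under the alternatives, and no call reversed. The sign changed in 66 of them, 61 on leaving out an array and 5 otherwise, in each case between values that passed under neither setting. Calls were lost in 26 values and gained in 10. H2-DMa, H2-DMb1, H2-DMb2 and H2-Oa at 4 h and H2-Aa, H2-Eb1, H2-DMa and H2-Oa at 24 h passed under all 13 alternatives run in both genotypes. For KO against WT, the mean over times and the difference in response, 0 class II genes passed under every alternative run.

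At 1 h the number of genes higher in KO macrophages (1) was 0 with Agilent's processed signals, and on leaving out an array it ranged from 0 to 2, with 2 without replicate 2 of the untreated arrays. In WT at 1 h (0) it ranged from 0 to 1. The number lower in KO at 4 h (9) ranged from 5 to 9, with 5 without replicate 1 of the 4 h arrays or replicate 2 of the untreated arrays. Replicate numbers recur at every time, and the labels tie nothing else to them. The difference between replicates in the KO/WT ratio correlated across features between times, with r from 0.476 to 0.680, where the numbers also mark the dye orientation. Under the replicate block the number was a term of the fit, and for LPS effects the dye was too. With it 1 gene was higher in WT and 4 in KO at 1 h (H2-Aa, H2-DMa, H2-DMb1 and H2-DMb2). Cd74 and H2-Aa also fell in WT at 4 h and H2-Ab1 in WT at 24 h. The share of all features called in these LPS comparisons under the block is not reported here. In the mean over times 1039 features were higher and 1200 lower in KO under the block, against 97 and 123 without it. All 9 genes were well above background in all 16 channels, and each time point has 2 arrays.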
